A study of Mus musculus with 18 samples.

Results

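The 55 genes described here build and run the mitotic apparatus: the spindle, the kinetochores, the checkpoint that watches them, the cleavage furrow and condensin. They were taken by gene symbol from a list drawn up for their function, with earlier results of these data known, and all 55 were found among the 22619 genes of the count table. RNA had been sequenced from thymocytes sorted by flow cytometry out of wild-type mouse thymi that had been grafts for 28 days. The 18 libraries form 4 groups: DN3 turnover (4 libraries) and DN3 autonomy (5), and DP turnover (4) and DP autonomy (5). DN3 cells carry neither CD4 nor CD8 and are at the stage where the T-cell receptor beta chain is tested, and DP cells carry both CD4 and CD8. All 4 groups share the wild-type genotype and the time in the host. In work with thymus grafts, turnover describes a graft whose thymocytes are replaced by progenitors arriving from the host, and autonomy a graft that maintains thymocyte production on its own when such progenitors are missing. Nothing on the hosts, strain, age or sex is given in the sources used here. Nor do the labels tie each library to an animal of its own, and the p-values therefore reflect how far these samples spread, which may be technical. The comparisons asked how the mitotic genes differ between autonomy and turnover within each stage, whether that difference is itself different between the stages, and how DP compares with DN3 in each condition.

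In mitosis, condensin and topoisomerase II compact and untangle the chromosomes, kinetochores attach each chromatid to spindle microtubules, and the spindle checkpoint holds back the anaphase-promoting complex until every kinetochore is attached. Separase then cuts cohesin, and the central spindle and the contractile ring divide the cell. In the thymus, cells that pass the beta-chain test at the end of DN3 divide rapidly on the way to DP, and most DP cells then rest. Most of these genes are transcribed in G2 and mitosis, and many of their promoters carry a cell cycle genes homology region, the CHR element bound by the DREAM and MuvB complexes, and CCAAT boxes bound by NF-Y.

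Promoters are shown for the 4 members with the largest DN3 change that hold the CHR core, since this element is known from many genes of mitosis. Each runs 5′ to 3′ on the gene's strand, from 250 bases before the start of transcription to 30 bases after it, and comes from the RefSeq promoters of build GRCm38.p6. Capitals mark TTTGAA, the CHR core, or its reverse complement TTCAAA, and CCAAT or its reverse complement ATTGG. The stretches are Hmmr (chr11:40733408-40733687, minus strand), Kif15 (chr9:122950831-122951110, plus strand), Anln (chr9:22389177-22389456, minus strand) and Kif18b (chr11:102925095-102925374, minus strand).
Hmmr: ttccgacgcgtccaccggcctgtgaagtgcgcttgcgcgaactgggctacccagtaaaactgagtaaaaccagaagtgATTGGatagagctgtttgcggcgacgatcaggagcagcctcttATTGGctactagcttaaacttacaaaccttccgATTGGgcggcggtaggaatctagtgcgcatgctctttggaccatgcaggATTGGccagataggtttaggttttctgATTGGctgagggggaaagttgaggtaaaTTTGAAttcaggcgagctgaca
Kif15: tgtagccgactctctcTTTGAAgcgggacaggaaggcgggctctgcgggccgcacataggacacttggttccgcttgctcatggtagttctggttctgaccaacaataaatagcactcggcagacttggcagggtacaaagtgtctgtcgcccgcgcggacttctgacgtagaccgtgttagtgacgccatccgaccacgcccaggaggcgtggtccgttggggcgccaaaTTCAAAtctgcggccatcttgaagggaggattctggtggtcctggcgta
Anln: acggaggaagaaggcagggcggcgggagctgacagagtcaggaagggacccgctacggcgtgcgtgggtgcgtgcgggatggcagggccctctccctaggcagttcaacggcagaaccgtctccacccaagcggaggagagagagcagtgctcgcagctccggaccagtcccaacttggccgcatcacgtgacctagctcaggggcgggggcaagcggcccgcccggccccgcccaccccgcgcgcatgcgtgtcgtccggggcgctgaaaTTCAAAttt
Kif18b: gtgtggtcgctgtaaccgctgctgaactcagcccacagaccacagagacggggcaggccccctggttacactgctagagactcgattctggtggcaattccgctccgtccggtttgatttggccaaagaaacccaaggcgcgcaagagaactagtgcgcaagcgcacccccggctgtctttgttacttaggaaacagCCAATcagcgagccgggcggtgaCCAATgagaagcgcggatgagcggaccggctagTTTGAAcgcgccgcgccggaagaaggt

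In the Hmmr promoter the CHR core begins 9 bases into the transcript, and 5 CCAAT boxes lie upstream of it. Kif18b has the core at base 4 with 2 CCAAT boxes upstream. The Anln window searched holds a core at base 22 and another at base 29, which the printed stretch cuts off, and Kif15 holds 2 copies of the core. The Anln and Kif15 stretches hold no CCAAT. Promoter windows of 300 bases were matched for 48 of the 55 members, and TTTGAA was present on either strand in 35 of the 48 (72.9%), against 20.2% of 27025 genes with a window and 14.2% of the 8408 such genes tested in DN3. CCAAT was present in 34 of 48 (70.8%), against 41.1% and 43.8%. Both stood in 29 of 48 (60.4%), against 7.97% and 5.91%, whereas TTTAAA, a variant core, was in 10 of 48 (20.8%), against 14.9% and 10.6%. The CHR cores were concentrated at the start of transcription: 35 of 48 sites in members lay within 50 bases of it (72.9%), against 25.3% of the TTTGAA sites in all windows. CCAAT sites were spread more widely, with 33.8% of 80 within 50 bases. Sites were counted per window. In the 4 members with several windows, a site that lies in overlapping windows was therefore counted more than once. By response, the core was in 18 of 26 matched members that rose in DN3 autonomy and in 17 of 22 that did not pass the test. In DP it was in 13 of 15 that fell and in 22 of 32 that did not pass. These matches are descriptions of letters in a window, with no test.

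**Figure D1:**
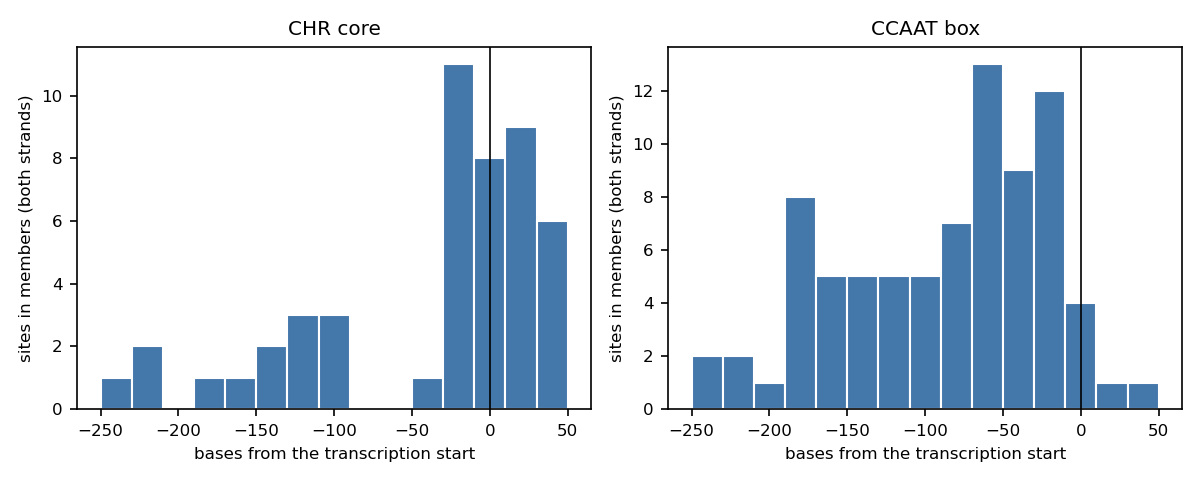
Number of motif sites in the promoter windows of the members (vertical axis) by distance from the start of transcription in bases (horizontal axis), for the CHR core on the left and the CCAAT box on the right, both strands counted. Sites are counted per window, so overlapping windows of a member repeat a site. The tallest bars of the CHR core stand next to the start, where 35 of 48 sites lie within 50 bases, and CCAAT sites reach farther upstream.

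Total counts per library were 7426834 to 21808512 for DN3 and 5032273 to 24191044 for DP. The sorted stages carried their markers: Il2ra, Ptcra, Notch1, Hes1, Notch3 and Cd3e summed to 1900.4 to 2634 CPM in DN3 turnover and 1664 to 3509 in DN3 autonomy, against 359 to 469 and 470.4 to 643 in DP turnover and DP autonomy. CPM are read counts scaled to a common library size. DP markers summed to at least 6154 CPM in every DP library. DN3 turnover library RP1141B stood apart, with 135 CPM of Cd4 where the other 3 held 0.422 to 1.96, and a DP marker sum of 1572 CPM, so DN3 results are also given without it. Of the other cell types, all 7 macrophage markers summed to 3.59 to 29.7 CPM in DP turnover and 21.2 to 128 in DP autonomy, highest in RP1133, with Adgre1 at 0 in DP autonomy and Csf1r and C1qc at 0 in DP turnover. C1qc, a complement subunit, held 3.90 to 32.6 CPM in DP autonomy and was the macrophage marker past the DP test (edgeR adjusted p = 0.00935). The 5 dendritic cell markers reached 150.4 CPM in DP autonomy library RP1135 and at most 18.5 in DP turnover. In DN3, macrophage sums were 18.3 to 35.9 CPM in turnover and 1.87 to 13.5 in autonomy, B cell sums 52.3 to 91.7 and 13.5 to 42.4 with Ms4a1 and Pax5 at 0 in both, and thymic epithelium sums 90.3 to 113 and 29.1 to 83.6, with Krt5 at 0 in both. The NK list summed to 1224 to 1705 and 1852 to 2515 CPM, most of it Gzma (1844 to 2509 CPM in DN3 autonomy). Ncr1 was at 0 in DN3 turnover and Klrb1c in DN3 autonomy. Nkg7 of the same list went the other way, from 113 to 161 CPM in DN3 turnover to 3.11 to 65.5 in DN3 autonomy. In the DN3 edgeR test Gzma was higher in autonomy (adjusted p = 0.0194). Nkg7, Lyz2, Cd79b, H2-Ab1 and Epcam were lower (adjusted p = 0.0134, 0.00709, 0.00975, 0.0115 and 0.0133). The part of these cells in the results was not tested. In bulk samples, fewer dividing cells and less RNA of a gene in each cell cannot be told apart.

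Levels are compared between genes per kilobase of exon. Smc4, an ATPase of the condensin core, led in 3 of the 4 groups, with 382 CPM per kb in DN3 turnover, 561 in DP turnover and 622 in DP autonomy. In DN3 autonomy it stood at 297, level with Cdc20, the activator of the anaphase-promoting complex, at 299. Top2a, topoisomerase II, was the third in every group, at 85.9, 146, 203 and 90.9 CPM per kb in DN3 turnover, DN3 autonomy, DP turnover and DP autonomy. Plk4, which controls centriole duplication, was the lowest member, at 0.0959 to 0.207 CPM per kb, below Kif11, the motor that slides spindle poles apart (0.170 to 0.695), and Iqgap3, a scaffold protein (0.568 to 0.965). Their lowest counts in a library were 2, 4 and 0, so these 3 genes carry little information here. The counting was not stated to use strand, and over 10% of the exon bases of Kif20a, Ube2c, Kif4, Ncapg and Prc1 are covered by a gene on the opposite strand, which makes the values of these 5 uncertain.

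The first comparison set DN3 autonomy against DN3 turnover. The mitotic genes were higher in autonomy: 31 of 55 rose, 0 fell and 24 did not pass the test, edgeR's quasi-likelihood test with Benjamini-Hochberg adjustment over all genes and a threshold of 0.05. Of all 10766 genes tested, 6.53% rose and 8.35% fell. The median log2 change of the 55 was 0.73, a 1.66-fold rise in level, beside -0.046 over all genes, and 53 of the 55 estimates were above 0. In 34 members every autonomy library lay above every turnover library, which held for 8.29% of all genes. Summed over the 55 genes, the libraries held 9375 ± 835 CPM in turnover (SD, n = 4) and 14109 ± 2076 CPM in autonomy (SD, n = 5), and the lowest autonomy library (11952) lay above the highest turnover library (10424). Of these mean sums, Smc4 alone made up 1990 and 1547 CPM, and Top2a 774 and 1317.5 CPM. Values for single libraries are given in the order RP1140A, RP1140B, RP1141A and RP1141B for turnover, and RP1133, RP1134, RP1135, RP1137 and RP1138 for DN3 autonomy.

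**Figure D2:**
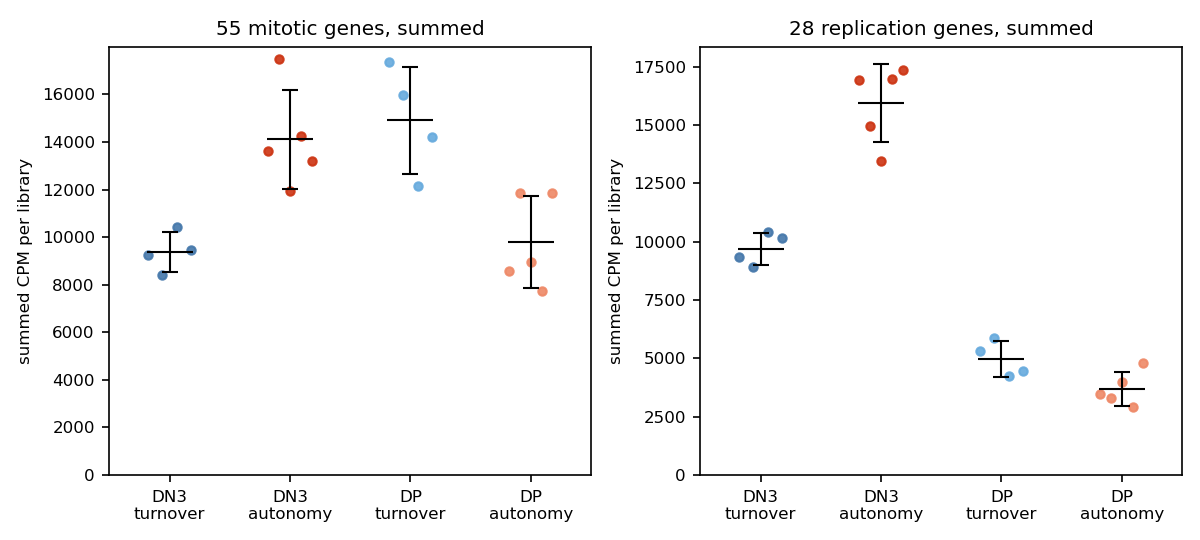
Summed CPM of the 55 mitotic genes (left) and of 28 replication genes (right) in each library, with each group's mean and SD as lines. For the mitotic genes the DN3 autonomy and DP turnover libraries are high and the DN3 turnover and DP autonomy libraries low; for the replication genes both DP groups lie below both DN3 groups.

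Among the 5 checkpoint genes, Bub1 and Mad2l1 rose. Mad2l1, the protein that binds and blocks Cdc20, had 124, 110.4, 132 and 124 CPM in the turnover libraries and 275, 331, 224, 273 and 271 CPM in the autonomy libraries (log2 change 1.15, SE 0.15, adjusted p = 0.000645). All 5 autonomy libraries lay far above all 4 turnover libraries. Bub1, the kinase that recruits other checkpoint proteins to the kinetochore, went from 126 ± 14.5 to 223 ± 62.6 CPM (SD; log2 0.82, adjusted p = 0.0184). Bub1b, the BubR1 pseudokinase of the mitotic checkpoint complex, had 188, 141, 176 and 133 CPM in turnover and 272, 206, 174, 253 and 219.7 in autonomy and did not pass (log2 0.48, adjusted p = 0.0685). Its groups overlapped, through autonomy library RP1135. Bub3, the shared partner of Bub1 and Bub1b, was among the 3 members with the smallest DN3 change (log2 0.22, adjusted p = 0.334), with 316, 312, 413 and 456 CPM in turnover and 446, 424, 409, 497 and 424 in autonomy. Those groups overlapped too. Ttk, the kinase at the head of the checkpoint, did not pass (log2 0.53, adjusted p = 0.160).

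Of the 4 genes of anaphase onset, Cdc20 rose. Its libraries held 236, 184, 349 and 288 CPM in turnover and 608, 501, 368, 654 and 665 in autonomy (log2 change 1.07, SE 0.22, adjusted p = 0.00713), and the groups did not overlap. Ube2c, the ubiquitin-conjugating enzyme of the anaphase-promoting complex, and Espl1, separase, did not pass (log2 0.67, adjusted p = 0.0609, and log2 0.88, adjusted p = 0.0650). Pttg1, the securin that holds separase in check, differed from these genes in having one of the smallest estimates (log2 change 0.24, SE 0.16, adjusted p = 0.340). It had 61.2, 46.8, 55.6 and 68.9 CPM in turnover and 61.6, 71.1, 70.7, 69.4 and 71.8 in autonomy, with overlapping groups.

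The mitotic kinases Plk1 and Aurka rose, and Plk4 did not pass (log2 -0.25, adjusted p = 0.855). Plk1, which acts from centrosome maturation to cytokinesis, had 139.8, 133, 201 and 117 CPM in turnover and 355, 199, 203, 326 and 318 in autonomy (log2 change 0.91, SE 0.22, adjusted p = 0.0154). Turnover library RP1141A and autonomy library RP1134 met at about the same level, and without turnover library RP1140A the call was lost (adjusted p = 0.0543). Aurka, the kinase of the spindle poles, went from 107 ± 17.2 to 179 ± 26.3 CPM (SD; log2 0.74, adjusted p = 0.0101). Of the chromosomal passenger complex, which corrects wrong attachments and then moves to the midzone, 3 of 4 genes rose: Aurkb, its kinase, Birc5, survivin, and Cdca8, borealin. Aurkb had 121, 103, 134 and 102 CPM in turnover and 241, 179.7, 176, 193 and 172 in autonomy (log2 change 0.73, SE 0.15, adjusted p = 0.00851). Birc5 had 160.0, 113, 219 and 192 CPM in turnover and 374, 341, 299, 383 and 405 in autonomy (log2 change 1.06, SE 0.19, adjusted p = 0.00353). In both genes every autonomy library was above every turnover library. Incenp, the scaffold of the complex, did not pass (log2 0.41, adjusted p = 0.0656), although its groups did not overlap either.

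At the centromere and kinetochore 7 of 10 genes rose, among them parts of the inner plate: Cenpa, the histone H3 variant that marks centromeres (log2 1.05, adjusted p = 0.00171), and Cenph and Cenpm of the constitutive network built on it. Cenph had 69.9, 67.8, 88.4 and 61.4 CPM in turnover and 123, 106, 116, 137 and 127 in autonomy (log2 change 0.75, SE 0.15, adjusted p = 0.00785). Its autonomy libraries all lay above its turnover libraries. Of the Ndc80 complex, the outer coupler that holds the microtubule, Nuf2 and Spc24 rose and Ndc80 and Spc25 did not pass (log2 0.47, adjusted p = 0.0927, and log2 0.48, adjusted p = 0.167). Nuf2 had 91.9, 58.3, 99.8 and 101 CPM in turnover and 147, 132, 113, 158 and 144 in autonomy (log2 change 0.65, SE 0.18, adjusted p = 0.0331). Its groups did not overlap, and the call was lost without turnover libraries RP1140A or RP1140B, or autonomy libraries RP1133, RP1137 or RP1138 (adjusted p up to 0.0805). Cenpe, the kinetochore kinesin, and Cenpf, a large coiled-coil protein of the outer kinetochore, also rose (log2 0.90, adjusted p = 0.0115, and log2 0.85, adjusted p = 0.0357).

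Of the 8 spindle kinesins, Kif15, Kif4 and Kif18b rose. Kif15, a motor that can hold the poles apart alongside Kif11, had the second largest DN3 change of all members (log2 change 1.25, SE 0.22, adjusted p = 0.00334), with 185, 130.2, 159 and 113 CPM in turnover and 401, 488, 281, 332 and 257 in autonomy. The lowest autonomy library was well above the highest turnover library. Kif4, a chromokinesin, and Kif18b, a plus-end motor, rose with adjusted p = 0.0455 and 0.0269. The Kif4 call was lost without any 1 library other than autonomy RP1133 (adjusted p up to 0.111), and the Kif18b call without turnover RP1141A or autonomy RP1133 or RP1137 (up to 0.0629). Kif11 was at 1.03, 4.61, 0.775 and 1.73 CPM in turnover and 1.25, 5.33, 1.79, 2.58 and 1.42 in autonomy, overlapping and not past the test (log2 0.27, adjusted p = 0.830). Of the 6 spindle assembly genes 4 rose: Hmmr, Tpx2, Ckap2l and Dlgap5. Hmmr (chr11:40701395-40733422, minus strand), a microtubule-binding protein that helps focus spindle poles, had the largest change among the members. Its turnover libraries were tightly grouped, at 101, 84.8, 101 and 101 CPM, and its autonomy libraries held 278, 267, 197, 229 and 208 CPM (log2 change 1.27, SE 0.15, adjusted p = 0.000405). No autonomy library came near the turnover level. Tpx2, which activates Aurka on the spindle, went from 146 ± 26.6 to 241 ± 26.0 CPM (SD; log2 0.71, adjusted p = 0.0113).

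For cytokinesis 5 of 8 genes rose: Prc1, Anln, Racgap1, Kif20a and Kif20b. Anln (chr9:22332012-22389188, minus strand), anillin, the scaffold of the contractile ring, had 77.7, 52.5, 64.3 and 42.5 CPM in turnover and 119.9, 186, 121, 120.0 and 125 in autonomy (log2 change 1.17, SE 0.22, adjusted p = 0.00411). The 5 autonomy libraries were all above the turnover libraries, and RP1134 was the highest. Prc1, which bundles the central spindle, and Racgap1, a centralspindlin subunit, rose with log2 0.64 and 0.86. Iqgap3 had 7.53, 7.48, 9.29 and 1.56 CPM in turnover and 10.5, 6.07, 6.08, 5.28 and 6.64 in autonomy, and did not pass (log2 0.08, adjusted p = 0.925).

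Of condensin, the non-SMC subunits Ncaph and Ncapg and the core ATPase Smc2 rose. The third non-SMC subunit, Ncapd2, did not pass (log2 0.30, adjusted p = 0.180), with overlapping groups, and Smc4, the partner ATPase of Smc2, had a negative estimate that did not pass. Ncapg had 240.4, 228, 209 and 161 CPM in turnover and 372, 557, 306, 472 and 429 in autonomy (log2 change 1.02, SE 0.19, adjusted p = 0.00490). Ncaph had 126, 142, 144 and 137 CPM in turnover and 196, 236, 182, 197 and 207 in autonomy (log2 change 0.56, SE 0.14, adjusted p = 0.0165). For both, all autonomy libraries were above all turnover libraries. The Ncaph call was lost without turnover library RP1140A (adjusted p = 0.0643). Smc2 had 232, 301, 325 and 288 CPM in turnover and 413, 878, 476, 478 and 504 in autonomy (log2 change 0.94, SE 0.22, adjusted p = 0.0155), without overlap, and lost its call without turnover library RP1140A (adjusted p = 0.0595). Smc4 had 1883, 1679, 2052 and 2344 CPM in turnover and 1326, 2161, 1562, 1459 and 1228 in autonomy (log2 change -0.37, SE 0.19, adjusted p = 0.194). Of its autonomy libraries RP1134 alone stood as high as the turnover libraries, and without RP1134 Smc4 was lower in autonomy (log2 -0.52, adjusted p = 0.0469). Top2a had 786, 994, 737 and 581 CPM in turnover and 1016, 2428, 1045, 1073 and 1026 in autonomy and did not pass (log2 change 0.77, SE 0.28, adjusted p = 0.0822), with RP1134 far above the rest but no overlap between the groups. Mki67, the chromosome-coating protein used as a proliferation marker, had 325, 353, 358 and 219 CPM in turnover and 458, 910.2, 452, 469 and 556 in autonomy (log2 0.86, adjusted p = 0.0303). Its groups did not overlap, RP1134 was again the highest, and the call was lost without turnover libraries RP1140A or RP1141B or autonomy library RP1138 (adjusted p up to 0.0740).

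The count of 31 fell to 18 without turnover library RP1140A and was 26 without the DP-marked library RP1141B. It was 11 with RP1140A and RP1140B summed into 1 sample and RP1141A and RP1141B into another, since they share a number. Over all genes, 1602 were past the test in either direction, and 811, 1408 and 507 in these runs. Autonomy library RP1134 stood over 1.5 times above the mean of the other 4 autonomy libraries in 15 of 55 members, and without it 31 members rose and 1, Smc4, fell. The share of all genes over this ratio in RP1134 was not counted. Of the 31 calls, 17 held with each library left out in turn and 14 were lost without at least 1. Beside those given above, Cdca8 and Kif20a were lost without turnover RP1140A (adjusted p up to 0.0639), Cenpm without turnover RP1140A or autonomy RP1138 (up to 0.0746), and Cenpf and Prc1 without turnover RP1140A, RP1140B or RP1141B (up to 0.108). Ckap2l was lost without those 3 or autonomy RP1133 or RP1137 (up to 0.0893), and Kif20b without any 1 turnover library or autonomy RP1137 or RP1138 (up to 0.122).

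In DP cells the same comparison ran the other way. Of 54 members tested, 0 rose, 15 fell and 39 did not pass edgeR's quasi-likelihood test; Plk4 had too few reads to be tested. Of all 10339 genes tested, 0.861% fell and 0.861% rose. The median log2 change of the members was -0.89, beside -0.0157 over all genes, and 52 of 54 estimates were below 0. In 17 members every autonomy library lay below every turnover library, which held for 3.87% of all genes. The sum over the 55 genes was 14912 ± 2254 CPM in turnover (SD, n = 4) and 9796 ± 1933 CPM in autonomy (SD, n = 5), again without overlap. Of these mean sums, Smc4 alone made up 2924 and 3238.5 CPM, and Top2a 1829 and 819 CPM. The DP autonomy libraries are given in the order RP1133, RP1135, RP1136, RP1137 and RP1138.

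The checkpoint genes Bub1 and Bub1b fell. Bub1b (chr2:118598211-118641591, plus strand) had 274, 233, 157 and 254 CPM in turnover and 66.9, 71.2, 72.0, 49.97 and 97.2 in autonomy (log2 change -1.70, SE 0.22, adjusted p = 0.00367), a 3.25-fold difference with a wide gap between the groups. Bub1 went from 211 ± 21.1 to 75.2 ± 32.2 CPM (SD; log2 -1.503, adjusted p = 0.0157), a call lost without turnover library RP1140B (adjusted p = 0.0532). Mad2l1 had 193, 145, 114 and 134 CPM in turnover and 109, 66.3, 88.9, 87.4 and 169 in autonomy and did not pass (log2 -0.51, adjusted p = 0.338), with autonomy library RP1138 within the turnover range. Bub3 had 548, 347, 367 and 367 CPM in turnover and 339, 399.8, 332, 309 and 473 in autonomy, with overlapping groups and one of the smallest estimates (log2 -0.15, adjusted p = 0.729).

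Cdc20 and Ube2c fell. Cdc20 had 409.6, 350.0, 347 and 435 CPM in turnover and 135, 269, 167, 200.01 and 282 in autonomy (log2 change -0.89, SE 0.21, adjusted p = 0.0485). The groups did not overlap, but the value lay just past the threshold and the call was lost without any 1 of the 4 turnover libraries, or without autonomy library RP1133, RP1136 or RP1137 (adjusted p up to 0.117). Ube2c went from 369 ± 48.4 to 171 ± 32.6 CPM (SD; log2 -1.12, adjusted p = 0.00832). Pttg1 had 73.2, 94.3, 65.0 and 77.7 CPM in turnover and 103, 154, 141, 128 and 62.1 in autonomy, an estimate above 0 that did not pass (log2 0.58, adjusted p = 0.246). In 4 of its 5 autonomy libraries it was above every turnover library, and in RP1138 it was below all of them.

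Plk1 fell, with 228, 168, 103 and 154 CPM in turnover and 62.2, 38.9, 76.1, 43.0 and 88.1 in autonomy (log2 change -1.42, SE 0.28, adjusted p = 0.0271). All autonomy libraries were below all turnover libraries. Its call was lost without turnover library RP1140A, RP1140B or RP1141B or autonomy library RP1133, RP1135 or RP1137 (adjusted p up to 0.0808). None of the 4 chromosomal passenger genes passed, all with estimates below 0. Aurkb had 145, 130.0, 79.2 and 99.9 CPM in turnover and 65.8, 65.0, 75.1, 37.8 and 95.1 in autonomy (log2 -0.76, adjusted p = 0.159), overlapping through RP1141A and RP1138. Birc5 had 266, 272, 173 and 196 CPM in turnover and 148, 176, 115, 136 and 204 in autonomy (log2 -0.55, adjusted p = 0.168), with 2 autonomy libraries inside the turnover range. None of the 10 kinetochore genes passed either, with log2 estimates from -1.58 (Nuf2) to -0.0220 (Cenph). Nuf2 had 197, 143, 121 and 42.6 CPM in turnover and 34.1, 42.8, 69.7, 21.4 and 44.4 in autonomy (log2 change -1.58, SE 0.39, adjusted p = 0.0598), and turnover library RP1141B stood with the autonomy libraries. Cenph had 15.3, 28.7, 28.7 and 21.5 CPM in turnover and 12.2, 12.8, 28.4, 28.8 and 35.0 in autonomy (log2 -0.0220, adjusted p = 0.985), fully overlapping.

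Among the kinesins, Kif15 and Kif22, a chromokinesin, fell. Kif15 had 166, 258, 199 and 302 CPM in turnover and 94.6, 124, 84.8, 109 and 119 in autonomy (log2 change -1.14, SE 0.20, adjusted p = 0.0160). No autonomy library reached the turnover libraries, and the call was lost without turnover library RP1140B (adjusted p = 0.0557). Kif11 had the largest DP estimate of all members and did not pass (log2 change -2.03, SE 0.83, adjusted p = 0.225): its libraries held 11.1, 2.67, 4.16 and 2.80 CPM in turnover and 0.754, 1.16, 1.66, 1.25 and 1.5004 in autonomy, and RP1140A alone was above 5 CPM. All autonomy libraries of Kif11 lay below all its turnover libraries, at these low counts. Hmmr had 299, 302, 166 and 209 CPM in turnover and 90.3, 190.5, 75.8, 52.5 and 144 in autonomy and did not pass (log2 -1.15, adjusted p = 0.0889). Autonomy library RP1135 lay inside the turnover range, which spanned 166 to 302 CPM. Ckap2, a microtubule stabilizer, was the spindle assembly gene that fell (log2 -1.38, adjusted p = 0.0406), a call lost without any 1 library other than turnover RP1141A and autonomy RP1138 (adjusted p up to 0.119) and also under voom. Kif22 lost its call without turnover RP1140B or RP1141B or autonomy RP1133 (up to 0.0777).

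In cytokinesis, Prc1, Anln and Racgap1 fell, and Racgap1 lost its call without turnover RP1140A, RP1140B or RP1141B or autonomy RP1133 (adjusted p up to 0.0803). Anln had 176, 134, 102 and 113 CPM in turnover and 30.5, 43.0, 55.4, 44.8 and 52.7 in autonomy (log2 change -1.55, SE 0.23, adjusted p = 0.00838), a 2.92-fold difference, and the highest autonomy library was well below the lowest turnover library. Iqgap3 had 8.22, 8.02, 4.77 and 22.9 CPM in turnover and 1.70, 0, 3.43, 12.7 and 14.9 in autonomy (log2 -0.77, adjusted p = 0.767), with no separation of the groups. Of the condensin and chromosome genes, Ncaph, Ncapd2, Top2a and Mki67 fell. Ncaph had 223, 309, 114 and 221 CPM in turnover and 108, 58.1, 57.6, 43.0 and 95.7 in autonomy (log2 change -1.60, SE 0.31, adjusted p = 0.0260). Top2a had 2180.3, 1901, 1545 and 1689 CPM in turnover and 563, 975, 671, 704 and 1184 in autonomy (log2 change -1.17, SE 0.20, adjusted p = 0.0148). Mki67 had 919, 851, 571 and 624 CPM in turnover and 172, 379.9, 289, 212 and 461 in autonomy (log2 change -1.30, SE 0.26, adjusted p = 0.0293). In all 3 the groups did not overlap. The calls of Ncaph and Mki67 were lost without several single libraries (turnover RP1140B or RP1141B or autonomy RP1136 for both, also autonomy RP1135 for Ncaph, and turnover RP1140A or autonomy RP1133 for Mki67), with adjusted p up to 0.0808. Ncapd2 (log2 -0.90, adjusted p = 0.0457) lost its call without any 1 library other than autonomy RP1138 (adjusted p up to 0.126). Ncapg had 293, 444, 207 and 317 CPM in turnover and 81.8, 210.2, 147, 105 and 306 in autonomy and did not pass (log2 -0.90, adjusted p = 0.186), with autonomy libraries RP1135 and RP1138 inside the turnover range. Smc2 had 466, 389, 321 and 444 CPM in turnover and 351, 433, 346, 245 and 518 in autonomy (log2 -0.11, adjusted p = 0.837), and Smc4 had 3433, 2938, 2572 and 2755 CPM in turnover and 3487, 4015, 3026, 2581 and 3083 in autonomy (log2 0.13, adjusted p = 0.660). Both core ATPases overlapped between the groups.

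The DP count of 15 moved with single libraries, and so did the count over all genes, 178 in either direction. It was 5 without turnover library RP1140B (33 over all genes), 9 without RP1140A (134) and 8 without RP1141B (59). Without autonomy library RP1133 it was 8 (66 over all genes). Without RP1135, RP1136, RP1137 or RP1138 it was 13, 11, 11 and 20 (98, 136, 129 and 252 over all genes). Without turnover RP1141A it was 13 (67 over all genes). The macrophage marker sums of the 5 DP autonomy libraries were 128, 93.0, 40.4, 67.8 and 21.2 CPM, in the order given above, and their part in these counts was not tested. Of the 15 calls, 5 held with each library left out in turn: Bub1b, Ube2c, Prc1, Anln and Top2a. The count was 26 by DESeq2, 23 in the fit of all 18 libraries and 2 with the A and B libraries summed. Over all genes, 736, 279 and 16 were past the test in these runs. DP autonomy library RP1138 stood over 1.5 times above the mean of its group's other libraries in 23 of 55 members. RP1133 and RP1137 lay more than 1.5-fold below the mean of their group's other libraries in 24 and 22 members. The share of all genes past these ratios was not counted.

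**Figure D3:**
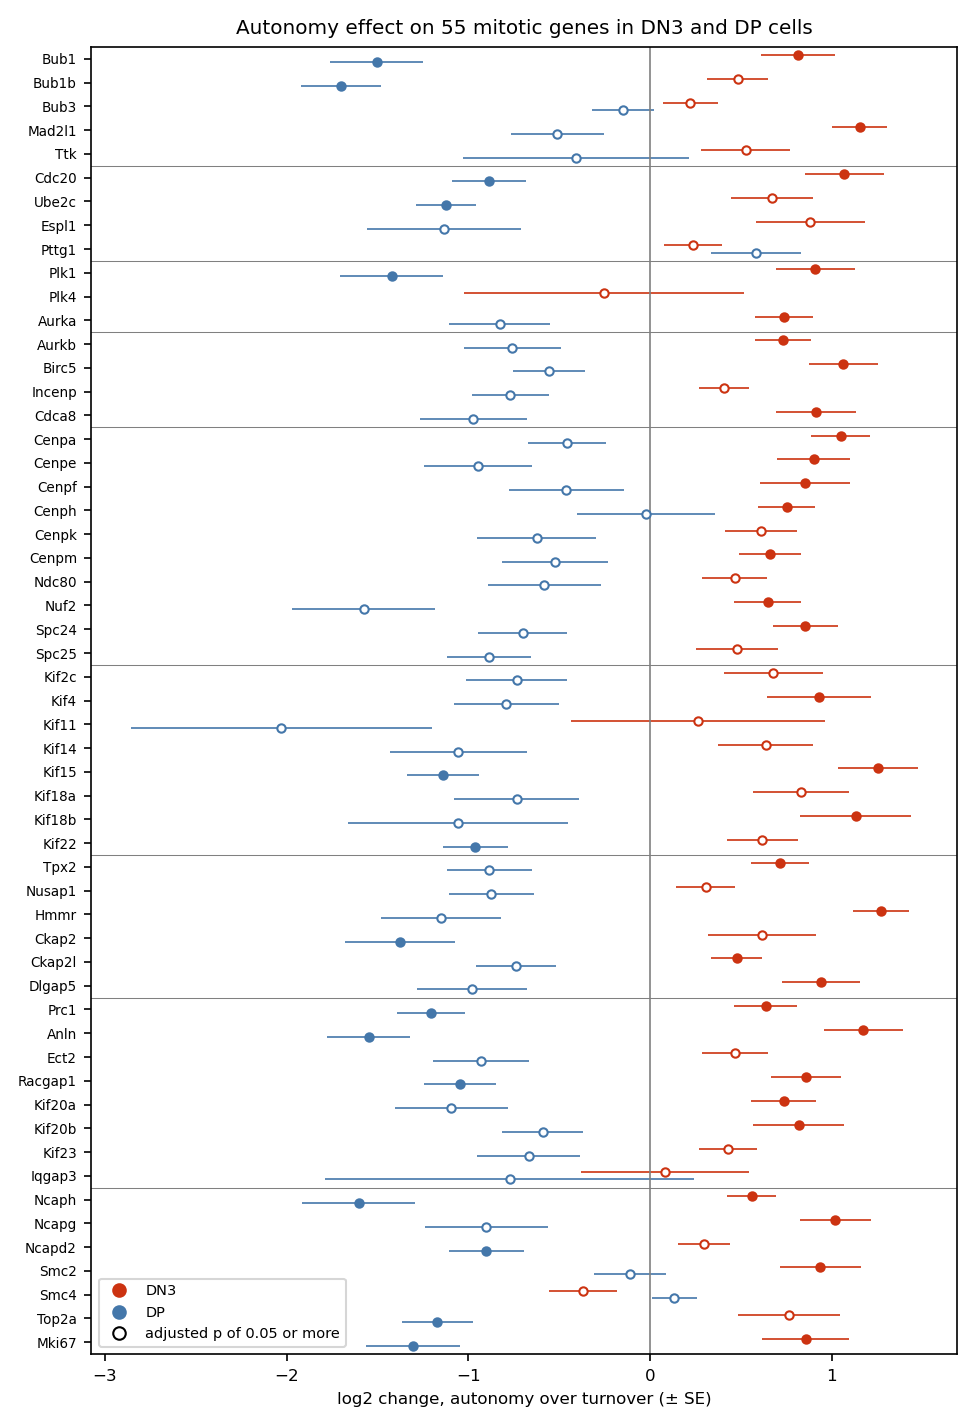
Log2 change of autonomy over turnover (horizontal axis, lines ± SE) for each member (vertical axis, in blocks by role), in DN3 in red and DP in blue, with open circles for an adjusted p of 0.05 or more. Of the members tested in both stages, 52 of 54 lie to the right of 0 in DN3 and to the left in DP; Pttg1 and Smc4 do not.

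The difference between the stages was tested directly, as the autonomy effect in DP minus that in DN3 in one edgeR model of all 18 libraries. It was past the test in 40 of 55 members, all in the negative direction, and 15 did not pass. Of 11521 genes tested, 2.61% were past it in that direction and 2.88% in the other. The median difference was -1.59 on the log2 scale, beside 0.06 over all genes. Anln, Hmmr and Kif15 had the 3 largest differences (log2 change -2.72, SE 0.32, adjusted p = 0.000125; -2.42 with adjusted p = 0.00119; and -2.38 with adjusted p = 0.000167). All 4 chromosomal passenger genes and all 6 spindle assembly genes passed, beside 6 of 10 kinetochore genes, 6 of 8 cytokinesis genes, 5 of 8 kinesins, 5 of 7 condensin and chromosome genes and 3 of 5 checkpoint genes. Birc5 (log2 -1.62, adjusted p = 0.00201) and Cenpa (log2 -1.503, adjusted p = 0.00261), which had not fallen in DP past the test, still differed between the stages. Among the 15 that did not pass were the low genes Plk4, Kif11 and Iqgap3, the kinetochore genes Cenpf, Cenph, Cenpk and Ndc80, and also Bub3, Ttk, Pttg1, Kif18a, Kif18b, Kif23, Smc2 and Smc4. In 9 members a rise in DN3 and a fall in DP both passed: Anln, Bub1, Cdc20, Kif15, Mki67, Ncaph, Plk1, Prc1 and Racgap1, 29.0% of the 31 and 60% of the 15. Over all 9896 genes tested in both stages, 13 did so, 1.98% of the 655 that rose in DN3 and 14.8% of the 88 that fell in DP, and these 13 include the 9 members. Leaving out single libraries left 34 to 43 members past the test, and summing the A and B libraries left 16. Over all genes, 633 were past it in either direction, 424 to 684 with single libraries left out and 145 with A and B summed. The calls lost without at least 1 library were those of Espl1, Spc25, Kif2c, Kif14, Nusap1, Ect2 and Kif20b (adjusted p up to 0.118).

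**Figure D4:**
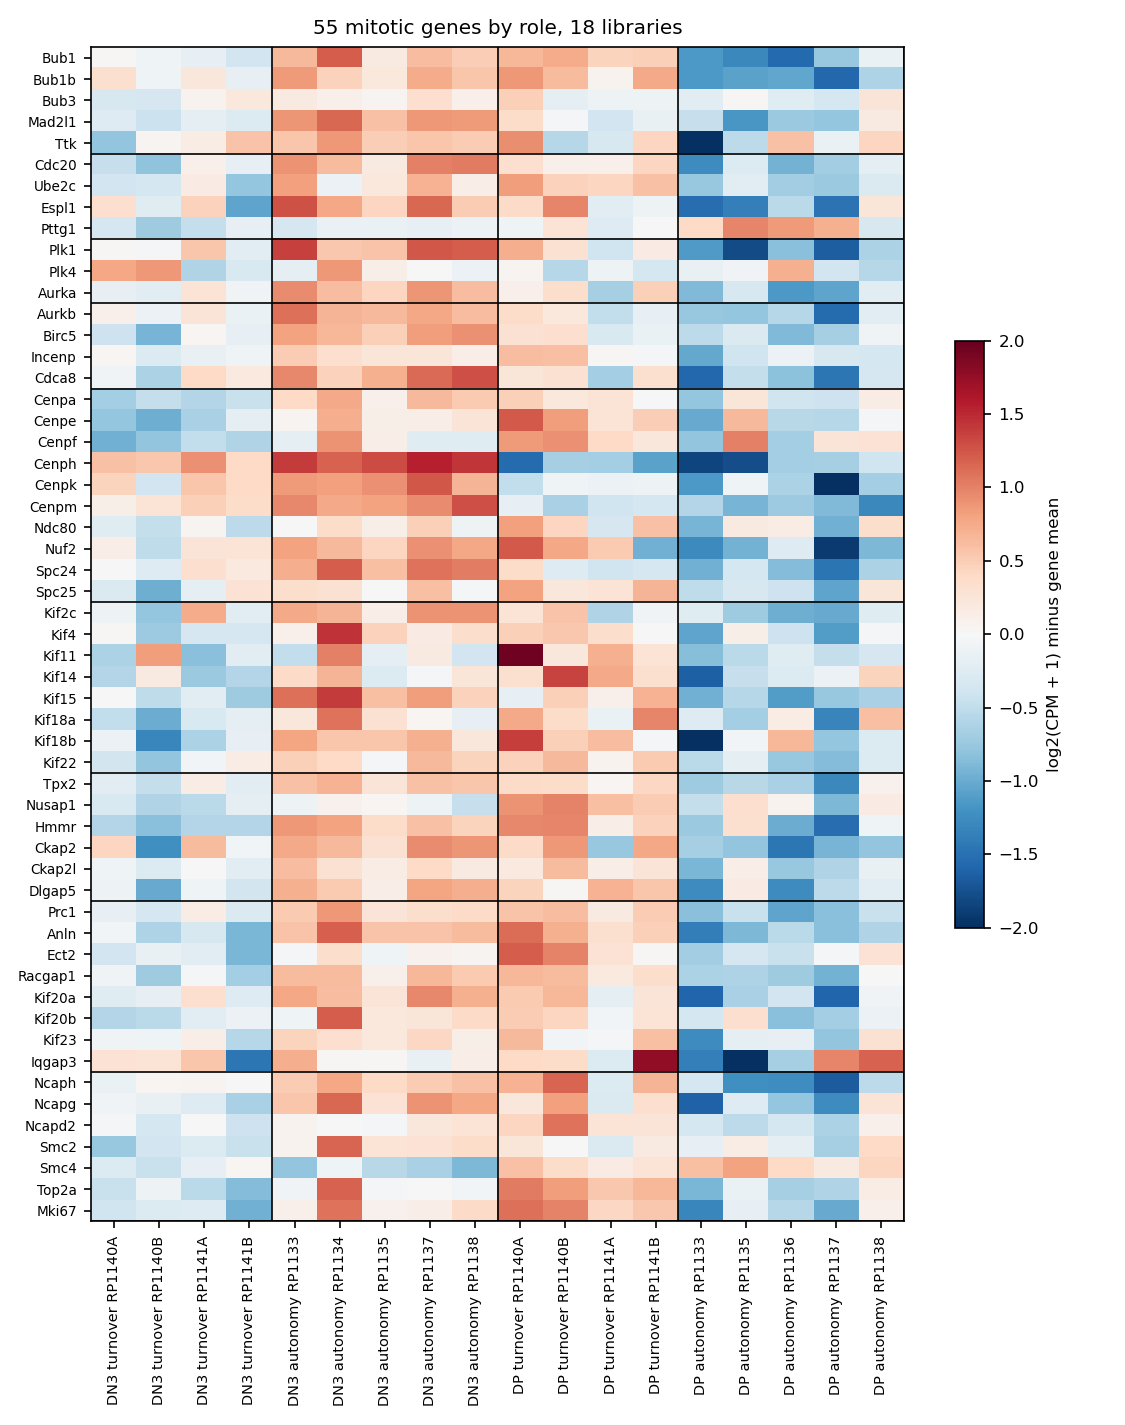
Log2(CPM + 1) of each member minus its mean over the 18 libraries (color, red above and blue below the mean), with members in rows by role and libraries in columns by group. DN3 autonomy and DP turnover are mostly red and DN3 turnover and DP autonomy mostly blue; Smc4 is red in both DP groups and Cenph in both DN3 groups.

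The stages were then compared within each condition. In turnover, 21 of 55 members were higher in DP than in DN3 and 2 were lower, with 32 not past the test (median log2 0.60, beside -0.04 over all genes); of all genes 15.8% were higher and 19.1% lower. In autonomy, 2 members were higher in DP and 40 were lower, with 13 not past (median log2 -1.02, beside -0.00305 over all genes); of all genes 23.7% were higher and 25.2% lower. These stage comparisons use the same libraries as the autonomy comparisons and are a second view of them. The members higher in DP within turnover included Cenpe (log2 1.38, adjusted p = 0.00121), Cenpf (log2 1.35, adjusted p = 0.00372), Hmmr (log2 1.34, adjusted p = 0.00162), Mki67 (log2 1.25, adjusted p = 0.00218) and Top2a (log2 1.25, adjusted p = 0.00169). Plk1, Plk4 and Aurka did not pass in turnover, and none of the passenger genes did. In Aurkb the DN3 and DP turnover levels were 115 ± 15.3 and 113 ± 29.5 CPM (SD, n = 4 each), and in Plk1 148 ± 37.0 and 163 ± 51.2 CPM. In autonomy, Plk1 was 4.53-fold lower in DP than in DN3 (log2 -2.18, adjusted p = 9.92e-07), Aurkb 2.82-fold (log2 -1.498, adjusted p = 7.89e-06) and Kif15 3.29-fold (log2 -1.72, adjusted p = 8.92e-07).

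In both conditions 17 members differed between the stages, 14 of them higher in DP in turnover and lower in autonomy, and 3 in the same direction. The share of all genes with these patterns was not counted. For single comparisons, 15.8% of all genes were higher and 19.1% lower in DP in turnover, and 23.7% and 25.2% in autonomy. Cenph and Cenpm were lower in DP in turnover (log2 -1.60, adjusted p = 0.000309, and log2 -0.71, adjusted p = 0.0130) as well as in autonomy (log2 -2.37, adjusted p = 5.01e-07, and log2 -1.88, adjusted p = 1.42e-07). The Cenpm call in turnover was lost without DP turnover RP1140B (adjusted p = 0.0531). Cenph ran from 61.4 to 137 CPM over the 9 DN3 libraries and from 12.2 to 35.0 over the 9 of DP, with no overlap. Cenpk, their neighbour in the constitutive network, and Spc24 had negative estimates in turnover that did not pass (log2 -0.48, adjusted p = 0.234, and log2 -0.21, adjusted p = 0.522). Smc4 (chr3:69004738-69034623, plus strand) went the other way and was higher in DP in both conditions (log2 0.57, adjusted p = 0.0150 in turnover, and log2 1.07, adjusted p = 1.04e-05 in autonomy). Its DP libraries held 2572 to 4015 CPM and its DN3 libraries 1228 to 2344 CPM, without overlap. Pttg1 was higher in DP in autonomy (log2 0.78, adjusted p = 0.00285) and did not pass in turnover (log2 0.43, adjusted p = 0.147).

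**Figure D5:**
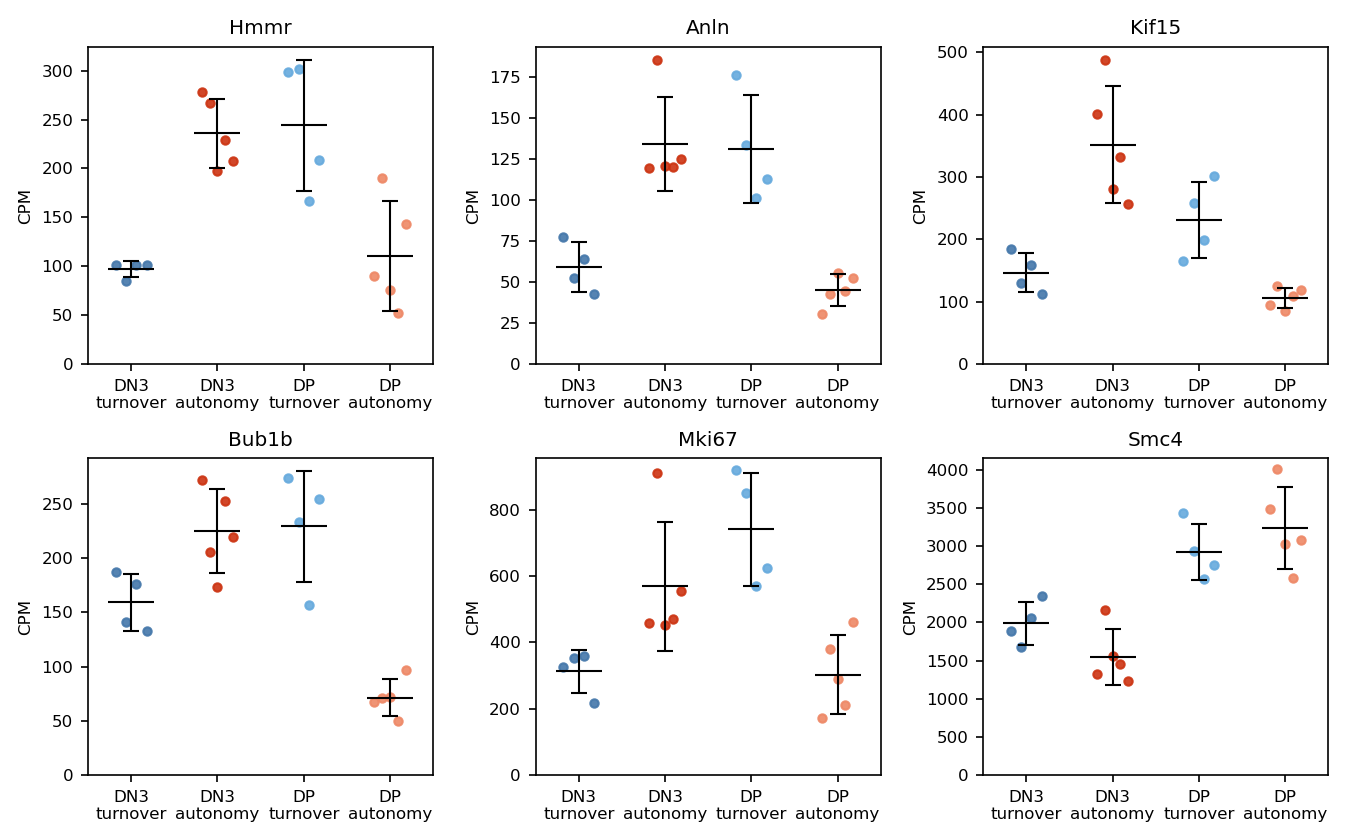
CPM of Hmmr, Anln, Kif15, Bub1b, Mki67 and Smc4 in each library of the 4 groups, with each group's mean and SD as lines. The first 5 genes are low in DP autonomy and, except for Bub1b, whose DN3 groups overlap, clearly higher in DN3 autonomy than in DN3 turnover; Smc4 is high in both DP groups.

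Genes of neighbouring steps were counted from lists of related genes that are not members. Their counts stand against 6.53% of all genes that rose and 8.35% that fell in DN3, and 0.861% that fell in DP. Of 20 mitotic entry genes, 10 rose in DN3 autonomy and 0 fell (median log2 0.73), led by the cyclins Ccnb2 (log2 1.04, adjusted p = 0.00387) and Ccnb1 (log2 0.999, adjusted p = 0.00333); in DP 1 fell, Ccna2, cyclin A (log2 -1.64, adjusted p = 0.0160), and 19 did not pass. Of 30 other kinetochore and centromere genes, 8 rose in DN3 and 0 fell, among them Spdl1, the dynein adaptor spindly (log2 1.20, adjusted p = 0.00429), and Ska1 (log2 1.03, adjusted p = 0.0108), and in DP 2 fell, among them Cenpc1 (log2 -0.88, adjusted p = 0.0331). Of 16 further genes of the anaphase-promoting complex, 1 rose in DN3, Anapc5 (log2 0.57, adjusted p = 0.0326), a share near that of all genes, and 0 fell in DP. Of 13 cohesin genes, 4 rose in DN3, among them Sgo1, shugoshin, the protector of centromeric cohesin (log2 0.88, adjusted p = 0.00345), and Esco2, a cohesin acetyltransferase (log2 0.83, adjusted p = 0.0169); Rad21, the cohesin subunit cut by separase, fell in DP (log2 -0.82, adjusted p = 0.0494). Of the 3 subunits particular to condensin II, Ncapg2 rose in DN3 (log2 0.94, adjusted p = 0.0178) and none passed in DP, and all 3 were past the test for the difference between stages. Of 22 centrosome genes tested, 5 rose in DN3 and 1, the augmin subunit Haus3, fell (log2 -0.59, adjusted p = 0.0137). The tubulin list also holds Stmn1, which is not itself a tubulin. Of its 9 genes tested, 4 rose in DN3, led by Tubb2b (log2 1.66, adjusted p = 0.0114). In DP the tubulins Tuba1b and Tubb5 fell (log2 -1.20, adjusted p = 0.0123, and log2 -0.80, adjusted p = 0.0260). Without turnover library RP1140A, 8 mitotic entry, 5 kinetochore, 2 cohesin and 2 tubulin genes rose in DN3, and Anapc5 and Haus3 lost their calls (adjusted p up to 0.0938). Without turnover library RP1140B the DP calls of Ccna2, Cenpc1, Rad21, Tuba1b and Tubb5 were lost (adjusted p up to 0.116 over the libraries left out for these 5).

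Genes of DNA replication, the step before mitosis, were counted in the same way. In DN3, 24 of 28 rose in autonomy and 0 fell (13 without turnover library RP1140A), and in DP 2 fell, Pold1 (log2 -1.34, adjusted p = 0.0359) and Mcm6 (log2 -0.81, adjusted p = 0.0301), both lost without turnover RP1140A, RP1140B or RP1141A or autonomy RP1133 or RP1137 (adjusted p up to 0.105). In turnover, 21 of the 28 were lower in DP than in DN3 and 0 were higher (median log2 -1.04), where 21 of the 55 mitotic genes were higher. Summed, the 28 genes held 9704 ± 685 CPM in DN3 turnover, 15941 ± 1671 in DN3 autonomy, 4973 ± 751 in DP turnover and 3698 ± 735 in DP autonomy (SD). Every DP turnover library thus had a higher mitotic sum and a lower replication sum than every DN3 turnover library. The DP autonomy libraries overlapped the DN3 turnover libraries in the mitotic sum and lay below them in the replication sum. Smc4 alone made up 3238.5 CPM of the mean mitotic sum in DP autonomy and 1990 CPM in DN3 turnover.

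In the authors' deposited table for DN3, 40 of the 55 members had an adjusted p under 0.05 with a higher value in autonomy and 0 with a lower one. In the authors' deposited table for DP, 0 were higher and 27 lower. The authors' adjusted p-values were read for the members only, so no share over all genes stands beside these counts.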

How the data were processed

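RNA-seq libraries of sorted DN3 and DP thymocytes, 18 in 4 groups, were analysed from the deposited files. The deposited count table holds whole-number read counts per Ensembl gene, made by the authors with HISAT2 and featureCounts on mm10 and GRCm38, per the submitters' processing notes; no version, setting or strand is given in the sources used here. The authors also deposited DESeq2 tables for DN3 and DP with a mean normalized signal, log2 fold changes with SE, a Wald score and p-values, per the file headers; only their log2 fold changes and adjusted p-values were used. Members were found by symbol in these tables and joined to the counts by Ensembl ID.

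Counts were tested in R 4.3.3 with edgeR 4.0.16 (TMM factors, filterByExpr, glmQLFit, glmQLFTest), with Benjamini-Hochberg adjustment over all genes tested and a threshold of 0.05. DN3 and DP were fitted apart for autonomy over turnover, and a joint model of the 18 libraries, with a mean for each of 4 groups, served for the difference between stages and for DP over DN3. The SE is the log2 change over the square root of F. CPM used TMM factors over all 18 libraries, and lengths and positions came from GENCODE M21 (GRCm38). Scripts were tested on simulated counts. Alternatives were DESeq2 1.42.0, RLE factors, voom in limma 3.58.1, no filter, summing A and B libraries, all 18 libraries, a replicate block, and leaving out each library. The CHR core, its variant and the CCAAT box, spelled out with the results, were searched on both strands of RefSeq promoter windows (GRCm38.p6); TTTAAA reads the same on both strands and was counted once per position.

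The members and lists were chosen with earlier results of these data known. Values per library are given for the 4 largest and 3 smallest changes in DN3 and in DP, the 3 largest differences between stages, and Mki67, Top2a, Plk1, Aurkb, Birc5, Cdc20 and Ncapg. Of each other list, at most 2 genes per direction, the largest changes first, were open to naming. Cell markers were fixed lists for 8 cell types; the erythroid list summed to at most 16.6 CPM in any library. Amplified reads are not independent molecules.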

Additional observations from a re-analysis of the deposited data

Results flagged for a closer look

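In each group of 4 or 5 libraries, a member was marked where its highest or lowest library stood farther from the others than Dixon's critical value allows, a test that marks about 1 in 20 groups by chance. This held for 24 of 224 combinations of a group with a member or with the sum of all members, 11 of them through DN3 autonomy library RP1134, which held 66.3 CPM of Ttk, 2.52 CPM of Plk4, 449.6 CPM of Cenpe, 329 CPM of Cenpf, 164 CPM of Kif4, 223 CPM of Kif18a, 186 CPM of Anln, 573 CPM of Kif20b, 878 CPM of Smc2, 2428 CPM of Top2a and 910.2 CPM of Mki67. In the other DN3 autonomy libraries the marked values were 61.6 CPM of Pttg1 and 10.5 CPM of Iqgap3 in RP1133, and 188 CPM of Racgap1 in RP1135. In DN3 turnover they were 38.2 CPM of Kif14 and 84.8 CPM of Hmmr in RP1140B, and 194 CPM of Kif20a in RP1141A. In DP turnover they were 548 CPM of Bub3, 80.9 CPM of Cenpk and 181 CPM of Spc24 in RP1140A, 90.1 CPM of Cdca8 and 171 CPM of Tpx2 in RP1141A, and 427 CPM of Ncapd2 in RP1140B. In DP autonomy the 1 marked value was 175 CPM of Racgap1 in RP1138.

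The autonomy effect differed between DP and DN3 past the test in 40 members, given here on the log2 scale as DP minus DN3. Among checkpoint genes the difference was -2.31 for Bub1, -2.18 for Bub1b and -1.66 for Mad2l1. For anaphase onset the difference was -1.95 for Cdc20, -1.80 for Ube2c and -2.02 for Espl1. Of the kinases the difference was -2.33 for Plk1 and -1.56 for Aurka. In the chromosomal passenger complex the difference was -1.49 for Aurkb, -1.62 for Birc5, -1.17 for Incenp and -1.88 for Cdca8. At the kinetochore the difference was -1.503 for Cenpa, -1.84 for Cenpe, -1.18 for Cenpm, -2.23 for Nuf2, -1.55 for Spc24 and -1.37 for Spc25. Of the kinesins the difference was -1.41 for Kif2c, -1.71 for Kif4, -1.69 for Kif14, -2.38 for Kif15 and -1.58 for Kif22. Among spindle assembly genes the difference was -1.59 for Tpx2, -1.18 for Nusap1, -2.42 for Hmmr, -1.99 for Ckap2, -1.21 for Ckap2l and -1.92 for Dlgap5. For cytokinesis the difference was -1.84 for Prc1, -2.72 for Anln, -1.39 for Ect2, -1.90 for Racgap1, -1.83 for Kif20a and -1.40 for Kif20b. Of the condensin and chromosome genes the difference was -2.15 for Ncaph, -1.92 for Ncapg, -1.19 for Ncapd2, -1.93 for Top2a and -2.15 for Mki67.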

How the results depend on the processing

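No member that passed a test in the reported fits changed direction under any alternative run. With single libraries left out, 18 to 32 members rose and 0 to 1 fell in DN3, and 5 to 20 fell in DP. Over all genes, 811 to 1784 were past the test in DN3 and 33 to 252 in DP in those runs. Summing the A and B libraries left 11 rising in DN3, 2 falling in DP, 16 past the test between stages and 10 between DP and DN3 in turnover. Over all genes these fits, which fewer samples enter, had 507, 16, 145 and 2170 past the test. DESeq2 and the fit of all 18 libraries gave 26 and 23 falling in DP, with 736 and 279 over all genes in either direction. The cause of the other shifts was not tested.

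Estimates that turned sign belonged to members that did not pass. With single libraries left out, the log2 change ran for Plk4 from -0.69 to 0.18, for Iqgap3 from -0.24 to 0.33 and for Kif11 from -0.22 to 1.05 in DN3, and in DP for Bub3 from -0.26 to 0.0221, for Cenph from -0.21 to 0.14 and for Smc2 from -0.25 to 0.0118. For DP over DN3 in turnover it ran from -0.12 to 0.13 for Aurkb, from -0.0167 to 0.27 for Bub3, from -0.0196 to 0.34 for Plk1, from -0.13 to 0.42 for Ttk, from -0.08 to 0.28 for Cdca8 and from -0.09 to 0.46 for Kif2c. In autonomy it ran from -0.61 to 0.25 for Iqgap3, from -0.998 to 0.08 for Plk4, from -0.28 to 0.33 for Cenpf and from -0.13 to 0.16 for Nusap1. Aurkb in turnover was 0.00714 by DESeq2 and 0.00719 with RLE factors.

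No paired analysis was possible for autonomy against turnover because these groups share no RP numbers. DN3 and DP libraries do share them, but libraries of the same number hardly deviated together (r from 0.00118 to 0.0521 over 11521 genes, highest with their own number in 3 of 8). With the number as a replicate block, 27 members were past the test between stages, 22 higher and 1 lower in DP in turnover, and 2 and 34 in autonomy. Over all genes, 291, 3604 and 4822 were past the test in either direction in these comparisons. Plk4, Kif11 and Iqgap3 had few reads, and none of them passed a test in the reported fits. The part of depth in this was not tested.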
